A study of Drosophila melanogaster with 3 samples.

Results

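Eip93F, Blimp-1 and crol are 3 of 13945 protein-coding genes on the 6 arms of the Drosophila melanogaster genome, and were chosen by name as late regulators of the prepupa. The choice was made with earlier results of these data known, so shares over all genes are given as background only. Each gene was taken from its first to its last annotated base with 5 kb added on each side. The series mapped where Lpt, a subunit of the Trr complex, sits on chromatin by ChIP-seq, in 3 biological replicates of whole white prepupae, males and females together, from a transgenic strain (Lpt-GFP) that stably expresses Lpt with GFP at its C terminus. The promoter that drives the transgene is not given in the labels. An antibody against GFP was used, all 3 replicates form a single group, and no control was analysed here, so enrichment at these genes without Lpt-GFP was not measured. Material from whole animals mixes all tissues, so a peak does not say in which cells, or in what share of them, Lpt-GFP was bound. No RNA was measured, so the label "late prepupal regulators", which rests on when these genes are known to act, could not be checked against these data.

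White prepupae stand at the start of metamorphosis, just after the late larval pulse of the steroid hormone 20-hydroxyecdysone, and a further pulse follows at the end of the prepupal stage. The hormone acts through a cascade of transcription factors whose timing decides which genes respond to each pulse. Eip93F (E93) is a helix-turn-helix transcription factor that is needed for the death of larval tissues and for adult differentiation. Blimp-1 is a zinc finger repressor of the PRDM family that sets when the nuclear receptor gene ftz-f1 is switched on. crol (crooked legs) encodes a zinc finger protein needed in prepupae for leg formation and for normal expression of ecdysone-regulated genes. The Trr complex methylates lysine 4 of histone H3 at enhancers, and Trr is known as a coactivator of the ecdysone receptor.

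The deposited peak list that had passed an irreproducible discovery rate (IDR) procedure held 6110 peaks. All 6110 were the 6110 regions of highest signal in the list from the pooled replicates, with a lowest signal of 109.51 against 109.50 in the next pooled region. The procedure therefore set how many pooled regions were kept, and support from each replicate had to be read peak by peak. Signal is the value that the authors gave each region as its enrichment within a list. It ranked regions within a list, and its scale differed between lists, with a median of 18.5, 25.0 and 16.7 in replicates 1, 2 and 3. Replicate lists held 30000, 30000 and 27893 regions, many of them background by design. The number of reads is unknown.

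Lpt-GFP was found at all 3 genes, in 3 different arrangements. crol held 5 IDR summits, Eip93F 4 and Blimp-1 3, whereas 45.3% of coding genes held at least 1 over the same extent. At least 5 summits were found in 2.98% of coding genes, at least 4 in 5.08% and at least 3 in 9.71%. These shares were not adjusted for length, and the 3 genes are long: 1.34% of coding genes are at least as long as Eip93F, 6.96% as Blimp-1 and 9.71% as crol, against a median of 2166 bp. Eip93F and crol had summits within 1 kb of a transcription start site (TSS) of their own, as did 19.2% of coding genes, and Blimp-1 had none. Of the 12 summits, 4 were at promoters, 7 elsewhere in the genes and 1 in the 5 kb outside. All 3 genes had summits in the body over 1 kb from their own TSSs, against 7.64% of coding genes. This share was not adjusted for length either, and short genes have little or no body that far from a TSS. The nearest TSS of another gene was at least 4832 bp from each of the 12.

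**Figure D1:**
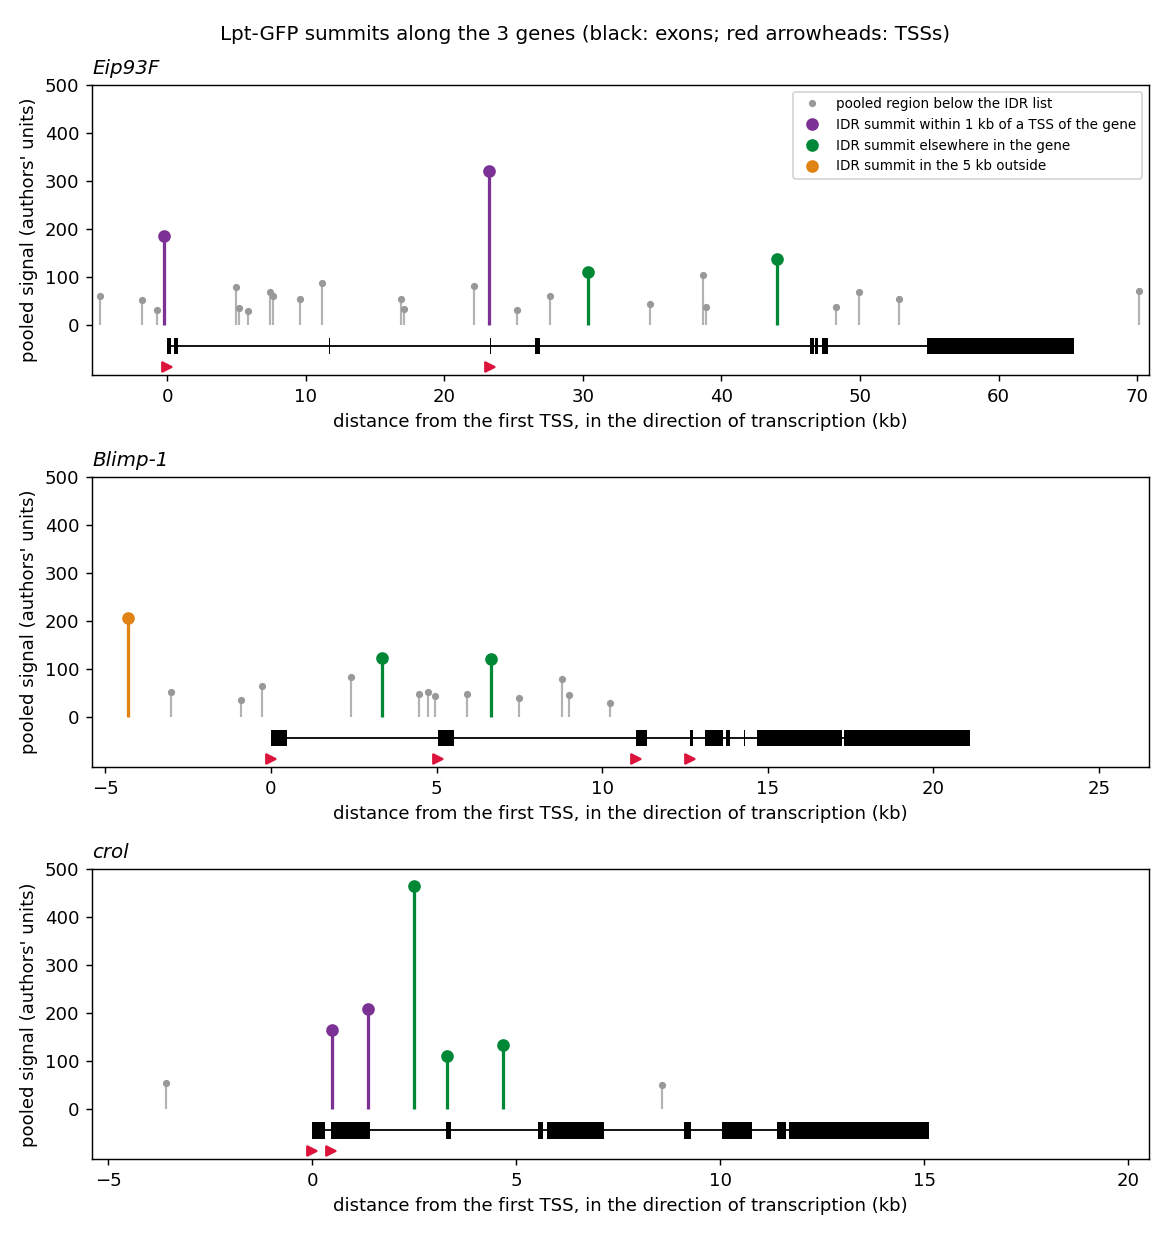
IDR summits (coloured) and pooled regions that fell below the IDR list (grey) along Eip93F, Blimp-1 and crol, plotted as pooled signal against distance from the first TSS in kb. Eip93F carries its strongest summit at its second TSS, Blimp-1 carries none within 1 kb of its 4 TSSs, and the 5 summits of crol lie within 4181 bp at the 5′ end of the gene.

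The sequences under 5 summits are given because they hold the strongest peak of each gene, the second Eip93F promoter and the GAGA repeats described further on. Each is read from the release 6 genome (dm6) on the strand of the gene, 5′ to 3′, with the summit in the middle, and capitals mark GAGAGAG or its reverse complement CTCTCTC. All 5 lie outside the annotated exons of these genes.
Eip93F, distal promoter, chr3R:21948767-21948967, + strand: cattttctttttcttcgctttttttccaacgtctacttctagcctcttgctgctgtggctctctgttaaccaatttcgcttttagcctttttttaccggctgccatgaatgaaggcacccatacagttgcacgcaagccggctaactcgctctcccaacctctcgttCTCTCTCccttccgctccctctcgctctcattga
Eip93F, internal promoter, chr3R:21972269-21972369, + strand: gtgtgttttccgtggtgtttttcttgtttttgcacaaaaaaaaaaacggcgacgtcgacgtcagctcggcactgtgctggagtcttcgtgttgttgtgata
Blimp-1, upstream summit, chr3L:5626600-5626700, + strand: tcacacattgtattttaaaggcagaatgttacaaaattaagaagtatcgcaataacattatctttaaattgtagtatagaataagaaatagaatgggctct
Blimp-1, summit in intron 1, chr3L:5634242-5634442, + strand: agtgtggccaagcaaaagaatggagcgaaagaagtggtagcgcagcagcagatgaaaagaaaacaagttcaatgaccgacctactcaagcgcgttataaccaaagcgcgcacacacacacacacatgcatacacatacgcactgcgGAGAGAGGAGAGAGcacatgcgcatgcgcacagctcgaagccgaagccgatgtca
crol, strongest summit, in intron 1, chr2L:11806857-11807057, − strand: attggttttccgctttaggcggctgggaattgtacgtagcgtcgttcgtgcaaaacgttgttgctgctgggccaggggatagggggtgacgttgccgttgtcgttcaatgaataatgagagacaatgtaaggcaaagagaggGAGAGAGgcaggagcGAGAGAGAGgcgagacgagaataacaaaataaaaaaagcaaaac

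Eip93F (FBgn0264490, chr3R:21949114-22014539, + strand) had Lpt-GFP at both of its promoters. The gene has 2 TSSs, 23265 bp apart: the distal one starts transcript RB and the internal one RA and RC. The peak at the internal promoter (chr3R:21972218-21972410) had its summit at −60 bp, a signal of 320 and rank 977 of 6110, and was the strongest of the gene. Its signal was 92.5, 154 and 80.2 in replicates 1, 2 and 3 (109 ± 39.8, SD, n = 3), at ranks 1121, 739 and 1306. It was thus among the strongest 6110 regions of every replicate, and the replicate summits lay −34, −10 and −3 bp from the pooled one. The window printed for it ends 10 bp upstream of the TSS, before the first exon of RA and RC.

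At the distal promoter of Eip93F, replicate 3 differed from the others. The peak (chr3R:21948649-21949084) had its summit at −247 bp, a signal of 185 and rank 2638. The replicates gave 89.9, 83.4 and 27.3 (66.9 ± 34.4, SD, n = 3), at ranks 1192, 2563 and 6873, so replicate 3 held a region there that was not among its 6110 strongest. The internal promoter had the higher signal and rank in 3 of 3 replicates, but by little in replicate 1. With 3 replicates an exact two-sided sign-flip test cannot give a p under 0.25, so the order of the 2 promoters was not tested. Among the 1666 coding genes with at least 2 TSS sites over 1 kb apart, 9.48% had an IDR summit at every site and 51.5% at none. Eip93F is among the first of these, and Blimp-1 among the second.

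The other 2 summits of Eip93F lay downstream of the internal TSS, in intron 2 of RA and RC and within the longer intron 3 of RB, which also spans that TSS. The summit at chr3R:21993123, 20744 bp from the internal TSS, had signal 137 and rank 4314, and its replicate values were close together, at 45.5, 48.0 and 47.1 (46.8 ± 1.2, SD, n = 3). Their ranks were 4163, 6552 and 3122, so a near-equal signal fell at different depths of the 3 lists. The summit at chr3R:21979479, 7100 bp from that TSS, was just inside the list, at rank 6057 with signal 110. Its replicate signals were 42.7, 49.9 and 27.2, and only replicate 1 placed it among its strongest regions, with its summit over 200 bp from the pooled one.

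Just outside the list, the next region of Eip93F (chr3R:21987562-21987997), in the same introns, had pooled signal 104 and rank 6548. It had 16.5, 59.4 and 25.6 in replicates 1, 2 and 3, and its rank in replicate 2, 4643, was above those of both intronic summits there (6139 and 6552). In all, 22 pooled regions in Eip93F and its flanks overlapped no IDR peak, with signals of 28.2 to 104. They were spread along the gene, as grey marks in the map of summits along the 3 genes show.

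Blimp-1 (FBgn0035625, chr3L:5630983-5652094, + strand) had Lpt-GFP away from its start sites. Its 4 TSSs lie 5032, 5988 and 1644 bp apart, and none had an IDR peak with its summit within 1 kb. The strongest peak (chr3L:5626432-5626867) lay upstream of the gene, with its summit at −4333 bp from the first TSS, signal 205 and rank 2245. Its replicate signals were 41.0, 91.1 and 67.3 (66.5 ± 25.0, SD, n = 3), at ranks 4886, 2198 and 1783. All 3 replicates held it among their strongest 6110, replicate 1 at the lowest rank. From the nearest TSS of another gene, that of Eaf6, the summit was at −18350 bp.

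The 2 summits inside Blimp-1 both fell in intron 1 of the transcripts that begin at the first TSS (RA, RB and RF), on either side of the second TSS. The first, at chr3L:5634342, lay −1673 bp from the second TSS, with signal 122 and rank 5156, and its replicate signals of 25.9, 65.2 and 21.4 (37.5 ± 24.1, SD, n = 3) rested on replicate 2. There it ranked 3958, while replicates 1 and 3 placed it at 9792 and 9652. The other, at chr3L:5637634, lay 1619 bp downstream of the second TSS, with signal 121 and rank 5237. Its signals were 31.2, 39.6 and 36.1 (35.6 ± 4.3, SD, n = 3), and only replicate 3 ranked it within 6110, at 4668.

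Regions below the list did touch the start sites of Blimp-1. Within 1 kb of the first TSS the strongest pooled region had signal 64.9 at rank 12239, with its summit at −278 bp, and all 3 replicate lists held one there, at ranks 11619, 8900 and 8859. At the second TSS the strongest pooled region had signal 50.98 and rank 16045, and at the third 29.5 and rank 28154. At the fourth the pooled list had none, and a single region of signal 12.8 was listed in replicate 3. This order along the gene was that of the pooled list: replicate 1 had 22.7 at the first TSS and 23.4 at the second, and replicate 3 had no region at the third. Input lists hold background regions, so these ranks do not show binding. The strongest pooled region of Blimp-1 outside the IDR list (chr3L:5633178-5633613, signal 82.5, rank 9027) was again in intron 1, with 41.7, 18.4 and 28.1 in replicates 1, 2 and 3. In replicate 1 it thus stood slightly above the upstream peak of the gene, at 41.0.

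crol (FBgn0020309, chr2L:11794327-11809438, − strand) had the strongest peak and the closest spacing of the 3 genes. Its 2 TSSs are 466 bp apart and count as a single promoter site. The strongest peak (chr2L:11806660-11807042) lay in intron 1 of all 9 transcripts, 2015 bp downstream of the nearer TSS, with signal 465 and rank 420. It had 148, 205 and 122 in replicates 1, 2 and 3 (158 ± 42.3, SD, n = 3), at ranks 379, 373 and 556. No replicate ranked it lower than 556, and 15.3% of the 6314 coding genes with any IDR summit had a stronger one. The corresponding shares were 30.6% for Eip93F and 54.9% for Blimp-1.

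Both promoter summits of crol lay downstream of the nearer TSS. The one at chr2L:11808948, 24 bp downstream, fell in the 5′ untranslated exon 1 of RA, RB, RC and RE and had signal 165 and rank 3205. Its replicate signals were 42.5, 95.6 and 28.5 (55.5 ± 35.4, SD, n = 3), with replicate 3 at rank 6468. The one at chr2L:11808072, 900 bp downstream and in the same exon, had signal 208 and rank 2185. Its replicate signals were 62.1, 91.2 and 62.1 (71.8 ± 16.8, SD, n = 3), and the ranks 2430, 2187 and 2018 differed little. For the transcripts that begin at the other TSS, both summits are in intron 1.

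The remaining 2 summits of crol were weak. The one at chr2L:11806129, 2843 bp from the nearer TSS, had signal 110 and rank 6047, and its replicate signals were 29.8, 45.9 and 37.0. It fell in an untranslated exon 2 of 6 of the 9 transcripts. Exons over 1 kb from every TSS held 1.51% of all IDR summits. The one at chr2L:11804767, 4205 bp from the nearer TSS, had signal 134 and rank 4490, with 39.7, 69.1 and 20.5 in replicates 1, 2 and 3. The 5 summits spanned 4181 bp, and 1.08% of IDR summits open a run of at least 5 within that distance. Both the number and the distance were taken from crol itself, and summits lying later in a run were not counted. The share therefore does not say how rare such spacing is. In crol and its flanks, 2 pooled regions overlapped no IDR peak, with signals 53.2 and 50.4, and at Eip93F and Blimp-1 there were 22 and 12. The stronger of the 2 (chr2L:11812817-11813252), upstream of the gene at rank 15364, had no region in replicate 1 and signals of 23.4 and 15.7 in replicates 2 and 3.

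The order of the strongest peaks, crol over Eip93F over Blimp-1, was the same by signal and by rank in 3 of 3 replicates. Their replicate values averaged 158 ± 42.3 at crol, 109 ± 39.8 at Eip93F and 66.5 ± 25.0 at Blimp-1 (SD, n = 3). These SDs also take in the difference in scale between the lists, so the genes are best compared within a replicate. In replicate 1 the values were 148 at crol, 92.5 at Eip93F and 41.0 at Blimp-1. In replicate 2 they were 205, 154 and 91.1, and in replicate 3 they were 122, 80.2 and 67.3. Every one of the 12 peaks overlapped some region in all 3 replicate lists, as did 96.9% of IDR peaks. Among the strongest 6110 of all 3 replicates were 4 of the 12, against 63.5% of IDR peaks: the internal promoter of Eip93F, the upstream summit of Blimp-1 and the summits of crol at 900 and 2015 bp. A further 4 were among the strongest in 2 replicates and 4 in 1. Keeping only peaks strong in both other replicates left 1, 2 and 2 summits in Eip93F without replicate 1, 2 and 3, 1 in Blimp-1 each time, and 2, 2 and 4 in crol.

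**Figure D2:**
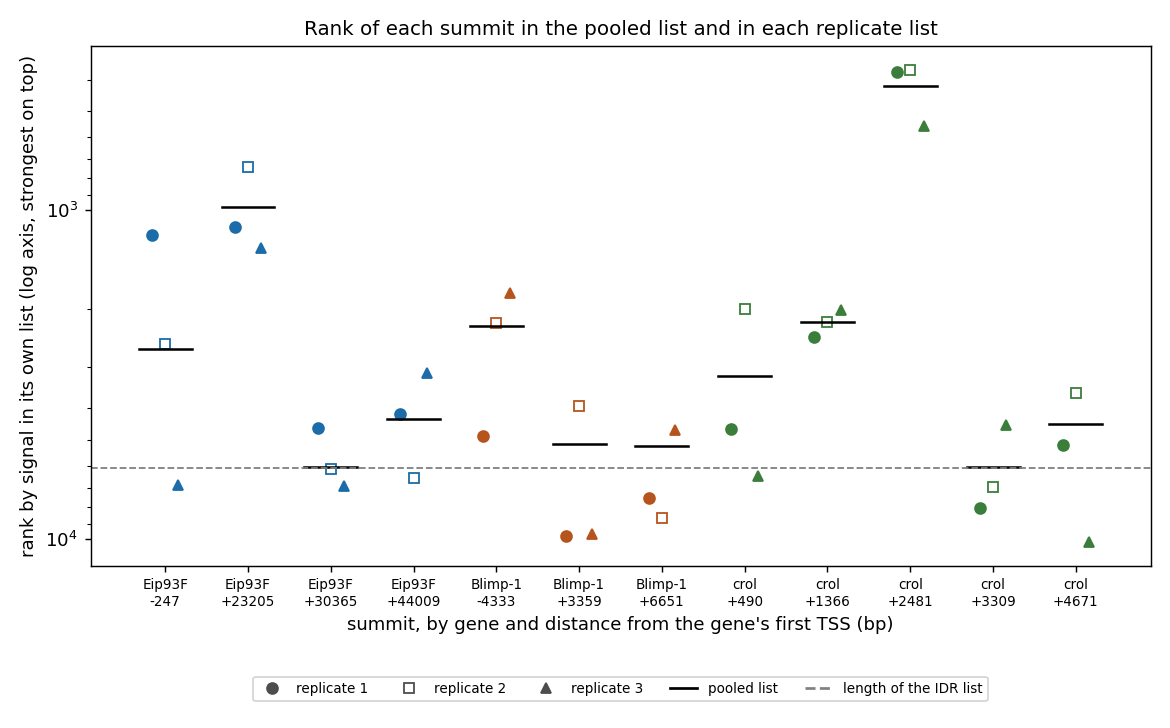
Rank by signal of the 12 summits in the pooled list (black bar) and in each replicate list (symbols), on a log axis with the strongest on top, and with the length of the IDR list dashed. The crol summit at +2481 bp from the first TSS ranks 379, 373 and 556 in replicates 1, 2 and 3, whereas 8 of the 12 summits fall below the dashed line in at least 1 replicate.

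Counted without reference to the IDR list, the 6110 strongest regions of each replicate gave counts at or below those of that list. They were not always at the same sites. Eip93F held 4, 3 and 2 summits in replicates 1, 2 and 3 (3.00 ± 1.00, SD, n = 3), Blimp-1 2, 2 and 2, and crol 5, 5 and 3 (4.33 ± 1.15, SD, n = 3). Promoter summits numbered 2, 2 and 1 in Eip93F and likewise in crol. Blimp-1 had 0 in each replicate. Its region inside the gene was a different one each time. In replicate 1 it was the region at chr3L:5633178-5633613, outside the IDR list (rank 4767). It was the summit at chr3L:5634342 in replicate 2 (rank 3958) and that at chr3L:5637634 in replicate 3 (rank 4668). In Eip93F the only body summit of replicate 2 (rank 4643) was likewise outside the IDR list, at chr3R:21987562-21987997.

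The strongest peaks of Eip93F and crol were also the narrowest of the 12. The commonest width of IDR peaks was 436 bp, and 10 of the 12 peaks had it. The strongest Eip93F peak was 193 bp wide and the strongest crol peak 383 bp. Of all IDR peaks 17.7% were narrower than the commonest width, and of the 977 with at least the signal of the strongest Eip93F peak 80.1% were.

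GAGA repeats, the letters bound by the GAGA factor Trl, stood within 100 bp of 4 of the 12 summits, against 8.23% of all IDR summits. They were searched on both strands as GAGAGAG and overlapping matches were counted. The strongest crol peak had 3 matches, beginning 42, 57 and 59 bp downstream of the summit, and the first intronic summit of Blimp-1 had 2, at 46 and 53 bp. The distal promoter of Eip93F had 1, at 67 bp, and the crol summit 24 bp from its TSS had 1, at 94 bp. Within 50 bp of the summit 1 of the 12 held a repeat, and within 200 bp 5 did. The share over all IDR summits was counted within 100 bp only, so 8.23% is no background for these 2 counts.

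The other 6 motifs were found within 100 bp of none of the 12 summits. AGGTCA, the repeat unit of nuclear receptor sites, occurred in 3.67% of IDR summits, CAAGGTC, bound by Ftz-f1, in 0.72%, and GTGAAAG, part of the site of the mammalian relative of Blimp-1, in 2.67%. TGANTCA, the AP-1 site, occurred in 4.55%, AACCGGTT, bound by Grainyhead, in 0.54%, and TATCGATA, the DRE, in 1.1%. CAAGGTC shares 5 letters with AGGTCA. The absence of a match says only that these letters are not in these windows. Over the same windows, GC content was above the median of IDR summits (36.3%) in all 5 crol windows (48.8 to 56.2%) and all 4 of Eip93F (38.8 to 48.8%). Blimp-1 had 32.8, 51.7 and 33.3%.

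Neighbouring genes shared none of these summits at their promoters. Of the 7 other genes with a TSS in the 3 extents (Idh3b and Theg beside Eip93F, lin-28 beside Blimp-1, and CycY, CG14937, Tsp33B and CG14932 beside crol), 0 had one of the IDR summits 1 kb or less from a TSS. The nearest IDR summit to a TSS of CycY was 2778 bp away and is not among the 12, the closest of which was 4832 bp away. The other 6 genes had no IDR summit, among the 12 or not, nearer than 8136 bp. The pooled list had 1 region that close to a TSS of Idh3b and 1 of CycY, both below the IDR list.

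The hormone cascade around these 3 genes was described by 17 other genes, called cascade genes here for short. Among them, chinmo was listed as a temporal gene and wg as a signalling gene, not as hormone genes. All 17 had an IDR summit in the gene or 5 kb on each side, 13 had one in the body and 12 had one at a promoter. Over all coding genes the shares were 45.3%, 7.64% and 19.2%, not adjusted for length. The 17 genes are long (median 39.9 kb), and no test was run on them as a list. They were also chosen with earlier results of these data known, so their counts beside these shares are a description only. Counts at the late regulators, 4, 3 and 5, lay at or below the list's median of 5. Among the receptor genes, EcR (the ecdysone receptor) had 15 summits, its coactivator tai 13 and its partner usp 1. Among the early genes, Eip75B had 29, Eip74EF 21, Eip78C 11 and br 3.

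Genes listed under prepupal timing also held more summits than Eip93F, Blimp-1 and crol, with Hr39 as the exception. Hr4 had 23, Hr3, which induces ftz-f1, had 13, ftz-f1, which Blimp-1 represses, had 10, and Hr39 had 4. Length did not order these counts: Eip93F, at 65.4 kb, held 4 summits, whereas Hr4 (66.0 kb) held 23 and Eip74EF (60.7 kb) 21. Eip93F was also not alone at the low end, since chinmo, a factor of larval identity, had 2 in 53.4 kb and br 3 in 89.7 kb. The strongest peak of crol (465) was above those of EcR (348), Hr3 (358) and ftz-f1 (348), and below those of Eip75B (820) and Hr4 (833).

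**Figure D3:**
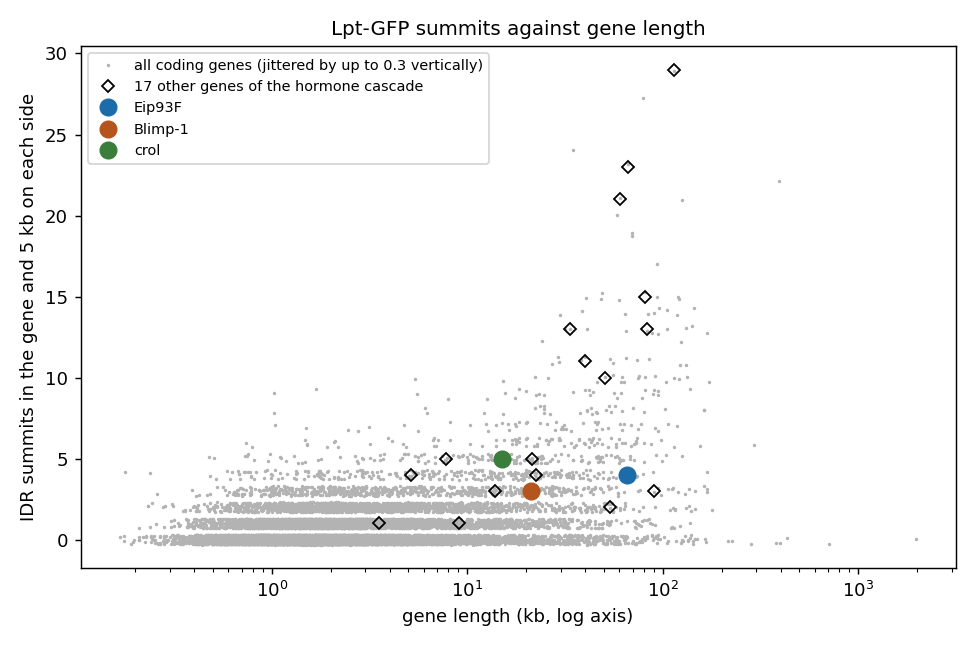
Number of IDR summits in each coding gene with 5 kb on each side against gene length on a log axis, with Eip93F, Blimp-1 and crol as filled circles and 17 cascade genes as open diamonds. Eip93F, with 4 summits, lies below Hr4 and Eip74EF, which are of similar length and hold 23 and 21.

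Blimp-1 was not the only gene of the cascade without a promoter summit. Of the 17, 5 had none: usp, Kr-h1 (a repressor induced by juvenile hormone), chinmo, shd (whose enzyme makes 20-hydroxyecdysone) and wg (the Wingless ligand, whose gene is repressed by crol in the wing). The juvenile hormone receptor genes Met and gce had 4 and 5 summits, 1 and 2 of them at promoters. Kr-h1 resembled Blimp-1 in having 3 summits and none at a promoter. Their split differed, with 1 in the gene and 2 in the flanks at Kr-h1, against 2 and 1 at Blimp-1. Of 13 cascade genes with at least 2 TSS sites, 4 had a summit at every site, as Eip93F did: tai, Eip74EF, Eip78C and ftz-f1. The share over all coding genes with at least 2 TSS sites was 9.48%.

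**Figure D4:**
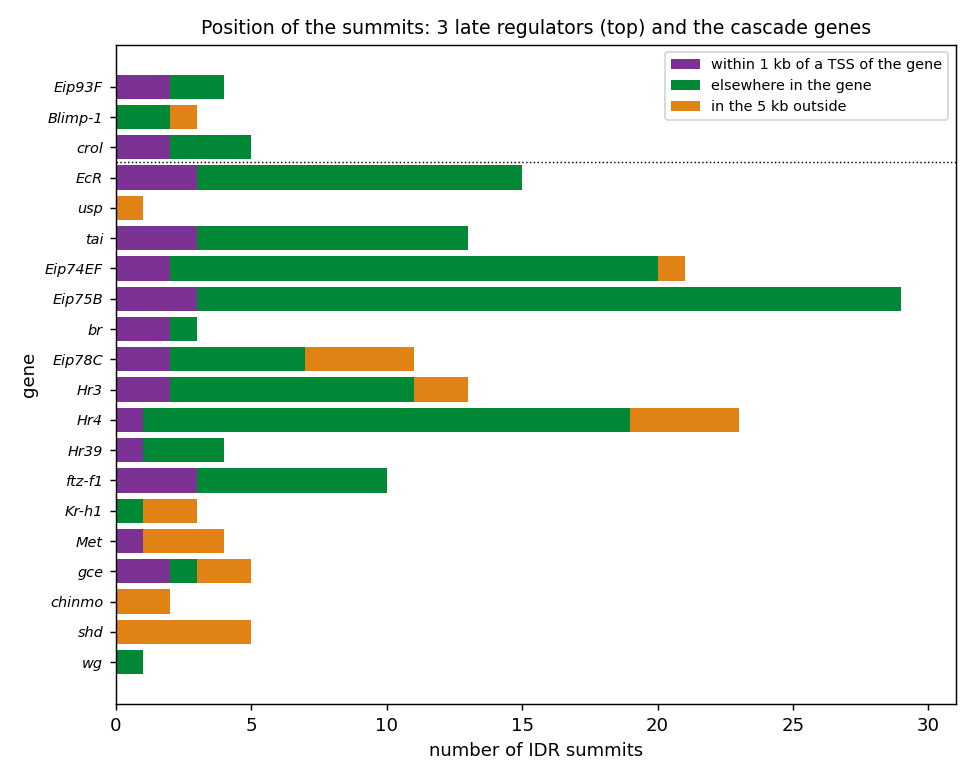
IDR summits of Eip93F, Blimp-1 and crol (top) and of 17 cascade genes, by position: within 1 kb of a TSS of the gene, elsewhere in the gene, or in the 5 kb outside. Eip93F and crol have 2 promoter summits each and Blimp-1 0, and 5 of the 17 others also have none.

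The coding genes most like each of the 3 were found from 9 counts: promoter, body and flank summits among the 6110 strongest regions of each of 3 replicates, compared by the sum of absolute differences. For Eip93F, neur, Brf and spin differed by 1. For Blimp-1, 7 genes differed by 0, and those nearest in length were CG13594, sowah and CG10137. For crol, Tgi differed by 1 and red and btsz by 2. Counts this small leave many genes alike (21 within 1 of the lowest sum for Eip93F, 26 for Blimp-1 and 3 for crol), and the measure takes no account of signal.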

How the data were processed

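The 5 dm6 lists used were narrowPeak files, 1 per replicate, 1 of the pooled replicates and the IDR list. Per the labels, chromatin was sonicated to 200 to 800 bp. Per the deposited descriptions, the authors derived every input list from alignments together with 1 additional file, and the IDR list from these lists. The deposited signal values are the authors' enrichment of each region within its list, on a scale that is not given in the sources used here, and neither are aligner, peak caller, IDR threshold and depth. The dm3 lists were not used.

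The Ensembl release 115 annotation and the RefSeq sequence are of the same assembly as dm6, and every region of the 5 lists ended within its arm. Annotated transposable elements were dropped, and positions are 1-based. A summit is the start of a peak plus its summit offset. Promoter means within 1000 bp of a TSS of the gene, and TSSs within 1000 bp of each other form a single site. Replicate values are those of the strongest region that shares at least 1 base with the IDR peak. The labels call the 3 replicates biological.

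With a single group, nothing could be tested between groups, and no p-value was computed. Shares of coding genes or of IDR peaks are given as background. Named genes are the 3 genes, other genes with a TSS in their extents, 17 genes of the cascade and the 3 most alike for each. Eaf6, outside this rule, is named only for its TSS, the nearest of another gene to the upstream summit of Blimp-1. The genes and lists were chosen with earlier results of these data known. Assignment of summits to genes was tested on simulated data. Scripts ran in Python 3.11.15 with pandas 2.3.3, numpy 2.4.6 and matplotlib 3.10.9.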

Additional observations from a re-analysis of the deposited data

How the results depend on the processing

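Of 68 alternative values for 13 counts and signals, 49 were unchanged or moved by at most 1.5 times (counts) or 1 SD (signals), and 19 moved further. Some of the 49 could not have moved: leaving out 1 of 3 replicate values never shifts their mean by 1 SD. The strongest peaks kept above the median signal could not change either. The 49 therefore do not measure how stable the results are. Counts fell under stricter sets of peaks, as fewer peaks were then counted. Leaving out a replicate left 1 to 2 IDR summits in Eip93F, 1 in Blimp-1 and 2 to 4 in crol, and 1 to 2 promoter summits each in Eip93F and crol. Keeping only IDR peaks above the median signal left 2, 1 and 2 summits in Eip93F, Blimp-1 and crol, and 1 promoter summit in crol. Within 500 bp of a TSS crol had 1 promoter summit, and within 2000 bp Blimp-1 had 2, which are its intronic summits at −1673 and 1619 bp. GAGA repeats were within 50 bp of 1 of 12 summits. Within 200 bp, 1 of 12 had AGGTCA and 1 GTGAAAG. Shares over all IDR summits were not counted at these distances. No flank, a flank of 10 kb, any overlap of the peak and RefSeq TSSs, which equal those of Ensembl for all 3 genes, kept every count within 1.5 times. The strongest peak of each gene stayed the same when only peaks strong in both other replicates were kept. Its pooled signal still came from all 3 replicates, as the pooled list was not remade without any of them. Keeping peaks above the median signal could not change it, since it was above that median in each gene. Each replicate by itself ranked this peak above the other IDR summits of its gene. In replicate 1, however, a Blimp-1 region outside the IDR list (chr3L:5633178-5633613) had 41.7 at rank 4767. The upstream peak of Blimp-1 had 41.0 at rank 4886 there. The strongest peak of Blimp-1 lies in the flank and is not counted with no flank, where the highest signal left is 122. The cause of the differences between replicates was not tested, and without read numbers depth cannot be weighed.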

Other observations

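Signal in the pooled list was close to the sum of the replicate signals at these 12 peaks, at 0.919 to 1.13 times that sum. At the first intronic summit of Blimp-1, rank 5156 in the pooled list, replicate 2 gave 65.2 and replicates 1 and 3 gave 25.9 and 21.4.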
